A study of Mus musculus with 2 samples.

Results

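Glutathione transferases join the tripeptide glutathione to reactive, often lipid-derived or foreign, molecules so that the product can be exported from the cell. The soluble enzymes fall into classes that include alpha, mu, pi, omega and theta. A kappa enzyme sits in mitochondria and peroxisomes, and microsomal enzymes are membrane proteins. In the small intestine they are part of the first barrier that absorbed compounds meet. The 8 genes followed here were Gsta1 and Gsta4 (alpha), Gstm1 and Gstm3 (mu), Gsto1 (omega), Gstp1 (pi), Gstk1 (kappa) and Mgst1 (microsomal). They are 8 of 31055 genes counted in 2335 cells, and all 8 were detected.

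The cells were prepared as epithelial cells of mouse small-intestinal crypts, in 1 single-cell gene expression library with a matching hashtag antibody library. They were not all epithelial: 88 of the 2335 cells met a B cell rule that is given below. The labels give 1 mouse that carried ChgaCreER-tdTomato and Rosa26LSL-eYFP, so that tamoxifen starts eYFP in cells that use Chga, a granule protein gene of enteroendocrine cells, and in their descendants. Tamoxifen was given in 5 daily injections of 1 mg, and eYFP+ cells and bulk epithelial cells, both from the treated mouse, were sorted and pooled. No untreated group was analysed here and there is no replicate, so no test between groups was possible and no p-value is given.

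Cells were placed in 6 classes by marker UMIs (unique transcript counts). Enterocytes, the absorptive cells, had at least 2 UMIs of Alpi (134 cells). Lgr5 cells, the stem cell class, had at least 3 Lgr5 UMIs (497 cells), and cycling cells had at least 10 UMIs of Mki67 and Top2a together (637 cells). Tph1 cells, which make serotonin, had at least 5 Tph1 UMIs (347 cells). Goblet cells, which make mucus, had at least 0.5% of their UMIs in Agr2, Fcgbp and Muc2 (129 cells). Paneth cells, which secrete antimicrobial peptides, had at least 5% in Lyz1, Defa24 and Defa30 (42 cells). The rules do not use the 8 members. Of the 2335 cells, 1464 met at least 1 rule, 300 met at least 2 and 871 met none, and 180 of the Lgr5 cells also met the cycling rule. A cell that met several rules was counted in each class.

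Markers that no rule used went with the class names: each of the 9 further enterocyte, 7 stem, 6 cycling, 8 enterochromaffin, 5 goblet and 5 Paneth markers was highest in its own class. Summed T cell markers lay between 1.72 and 2.86 CPM in the 6 classes and B or plasma cell markers between 0.542 and 13.4 CPM. Cells held 1002 to 129719 UMIs, and the median was 28428 in enterocytes, 24495 in Lgr5 cells, 31975 in cycling cells, 12503 in Tph1 cells, 21042 in goblet cells and 44397 in Paneth cells. Although the labels name 1 mouse, 1744 cells had at least 3 UMIs of Xist and no Y-linked UMI, and 252 had a Y-linked UMI and at most 2 Xist UMIs. Of these 252, 248 carried hashtags 1 and 2.

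Levels are CPM: the UMIs a class holds for a gene, divided by all its UMIs and multiplied by 1000000, with exact 95% Poisson intervals in parentheses. These intervals cover counting error only and not the spread between cells or between animals. Among enterocytes, for example, the lower and upper quartiles of Gsta1 per cell were 49.1 and 753 CPM. Intervals said to be apart or to overlap refer to counting error alone. The library counts 1 end of each transcript, so levels were not divided by gene length and are not compared between genes per length. Because CPM is a share of the cell's RNA, less of a transcript and more of all others cannot be told apart. Gsta1 and Gsta2, and Gstp1, Gstp2 and Gstp3, are near-identical copies, and the mu genes are alike too. How reads that fit several copies were counted was not given in the sources used here, so these levels are uncertain to that extent.

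Sequence upstream of the members was read from RefSeq promoters (GRCm38.p6), which held 7 of the 8 members. The 80 bases before the annotated start are shown, on the gene's strand, for the enterocyte-high genes Gsta1 and Gstm3 and for the Tph1 cell-high Gstk1, the members whose levels differed most between classes. They lie at chr9:78230589-78230668 (plus strand), chr3:107969175-107969254 (minus strand) and chr6:42245855-42245934 (plus strand).
Gsta1: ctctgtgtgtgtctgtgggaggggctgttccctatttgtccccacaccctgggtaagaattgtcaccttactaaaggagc
Gstm3: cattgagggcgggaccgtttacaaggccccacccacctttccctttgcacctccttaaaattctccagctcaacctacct
Gstk1: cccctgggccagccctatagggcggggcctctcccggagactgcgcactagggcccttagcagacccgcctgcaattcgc

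Within 250 bases before the start, both strands were searched for TGACNNNGC, the core of the antioxidant response element bound by Nrf2 (gene Nfe2l2), and for the palindromic HNF1 motif. The members had 9 promoter entries, and Gsta4 had 0, so it was not searched. The first motif was present in 1 of the 2 entries of Mgst1 and upstream of no other member searched. The second was found upstream of none of them. Of all 32851 promoter entries, 10.2% held the first motif and 0.00913% the second. The Mgst1 match is on the opposite strand, 56 bases before the start, and is shown in capitals with 25 bases on each side, at chr6:138140446-138140504 (plus strand).
Mgst1: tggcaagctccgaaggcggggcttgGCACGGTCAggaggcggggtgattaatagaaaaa
A match is a run of letters and not a measured binding site.

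Together the 8 members took 2898 CPM (2848 to 2948) of the RNA of enterocytes, the highest of the 6 classes. The sum was 906 CPM (894 to 919) in cycling cells, 740.0 (726 to 754) in Lgr5 cells, 726 (705 to 747) in Tph1 cells, 601 (574 to 629) in goblet cells and 175 (157 to 195) in Paneth cells. The intervals of Lgr5 and Tph1 cells overlapped, and those of all other neighbours in this order were apart. The make-up of the sum differed as well. Mgst1 and Gsto1 made 40.8% and 34.5% of it in Lgr5 cells, whereas in enterocytes Mgst1 made 24.1%, Gsta1 19.4%, Gstm3 18.5% and Gsto1 15.6%. In Tph1 cells Gsto1 made 37.9% and Gstk1 27.3%.

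**Figure D1:**
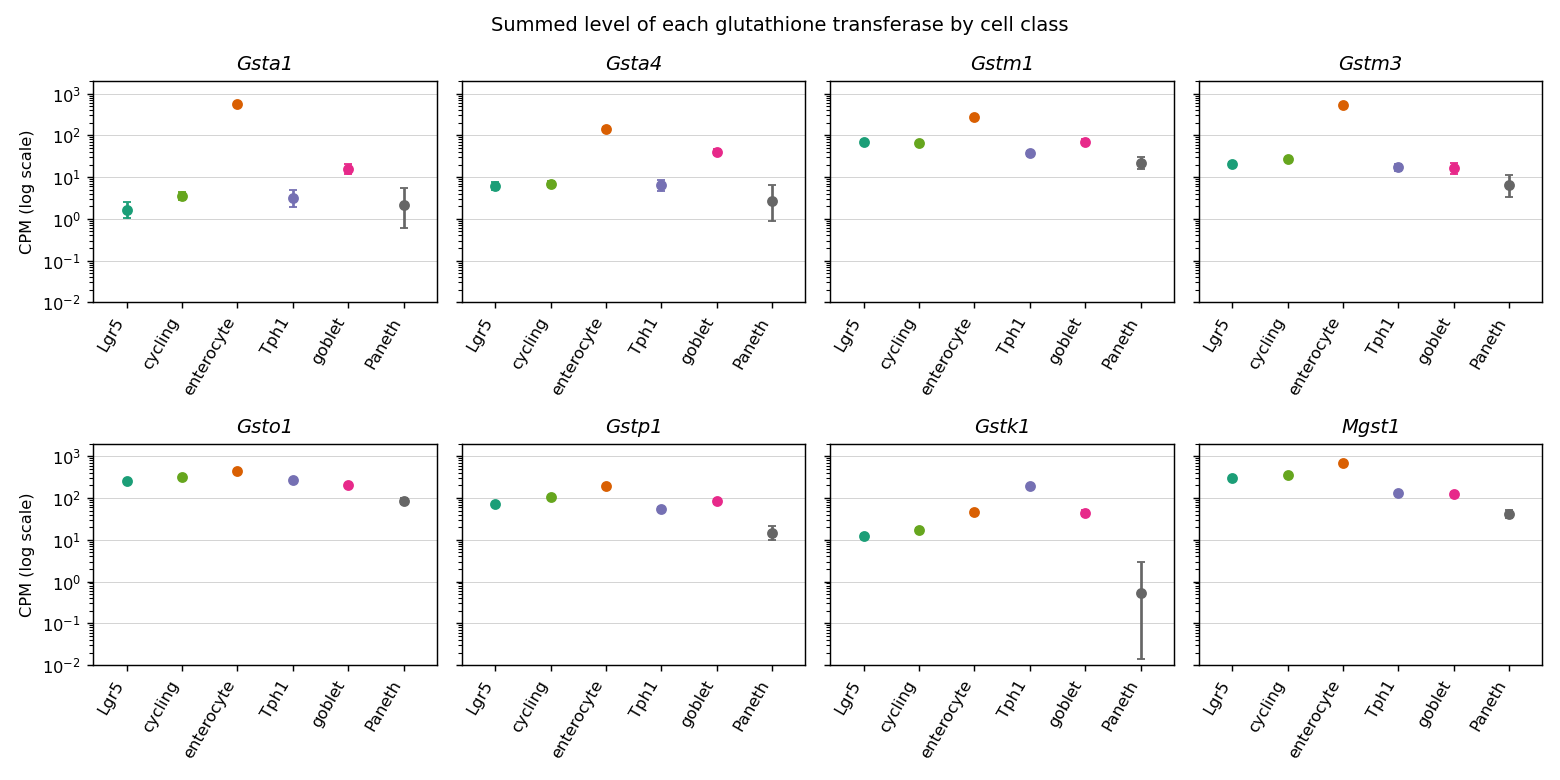
Summed level of each of the 8 genes in the 6 cell classes, in CPM on a log axis; points are the UMIs of a class over its total and bars exact 95% Poisson intervals. Gsta1, Gsta4 and Gstm3 stand highest in enterocytes and Gstk1 in Tph1 cells (198 CPM), whereas Gsto1 spans 85.7 to 451 CPM.

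Both alpha genes were highest in enterocytes and next highest in goblet cells. Gsta1 (ENSMUSG00000074183), an enzyme that conjugates glutathione and also reduces lipid peroxides, had 562 CPM (540 to 584) in enterocytes. It had 15.9 CPM (11.8 to 20.9) in goblet cells, 3.49 (2.77 to 4.35) in cycling cells, 3.12 (1.91 to 4.82) in Tph1 cells, 2.17 (0.591 to 5.56) in Paneth cells and 1.66 (1.06 to 2.47) in Lgr5 cells. Enterocytes and then goblet cells stood apart from the rest, and neighbours among the last 4 classes overlapped. Gsta4 (ENSMUSG00000032348), which acts on the lipid peroxidation product 4-hydroxynonenal, had 145 CPM (134 to 156) in enterocytes and 39.99 (33.3 to 47.6) in goblet cells. In the other 4 classes it lay between 2.71 and 6.90 CPM, with each neighbour overlapping the next. Of the 134 enterocytes, 121 had Xist and no Y-linked UMI. Gsta1 had 624 CPM (599.97 to 649.7) in those 121 cells and 39.0 (18.7 to 71.8) in the 6 with Y-linked UMIs, and the 8 members together had 3083 (3028 to 3138) and 1612 CPM (1460.2 to 1775).

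The mu genes, whose enzymes act on electrophiles such as epoxides, were also highest in enterocytes, but they differed in the remaining classes. Gstm3 (ENSMUSG00000004038) had 538 CPM (516 to 559) in enterocytes and 6.51 (3.36 to 11.4) to 26.6 (24.5 to 28.8) CPM elsewhere, with cycling cells the next highest. Gstm1 (ENSMUSG00000058135) had 269 CPM (254 to 285) in enterocytes, 71.1 (62.1 to 81.0) in goblet cells, 71.02 (66.7 to 75.5) in Lgr5 cells and 67.1 (63.8 to 70.5) in cycling cells. These last 3 overlapped as neighbours, and Tph1 cells (36.8, 32.3 to 41.8) and Paneth cells (21.7, 15.5 to 29.5) lay lower.

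Gsto1, Gstp1 and Mgst1, like the other members, had UMIs in all 6 classes. Gsto1 (ENSMUSG00000025068), a thioltransferase-like member, ranged from 85.7 CPM (72.9 to 100.2) in Paneth cells to 451 (431 to 471) in enterocytes, 5.26 times as much. Mgst1 (ENSMUSG00000008540), the microsomal enzyme, had 698 CPM (673 to 723) in enterocytes, 362 (354 to 370) in cycling cells and 302 (293 to 311) in Lgr5 cells. It was lower in the secretory classes, with 134 CPM (125 to 143) in Tph1 cells, 124 (112 to 137) in goblet cells and 41.2 (32.5 to 51.6) in Paneth cells. Gstp1 (ENSMUSG00000060803), the pi class enzyme, had 189.97 CPM (177 to 203) in enterocytes, 105 (101 to 109) in cycling cells and 14.6 (9.65 to 21.3) in Paneth cells. Of the 42 Paneth cells, 14 also met the Lgr5 rule and 6 the goblet rule, and the Paneth levels include them. In the 22 Paneth cells that met exactly 1 rule, Gsto1 had 39.1 CPM (27.2 to 54.3). Gstp1 had 7.81 (3.14 to 16.1) and Mgst1 6.69 (2.46 to 14.6) there. Gsto1 had 474 CPM (452 to 498) in enterocytes that met exactly 1 rule.

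Gstk1 (ENSMUSG00000029864) did not follow the other 7 members. It had 198 CPM (188 to 210) in Tph1 cells, 46.2 (40.1 to 52.9) in enterocytes, 44.8 (37.7 to 52.8) in goblet cells, 17.1 (15.4 to 18.9) in cycling cells and 12.2 (10.5 to 14.1) in Lgr5 cells. Paneth cells held 1 UMI, 0.542 CPM (0.0137 to 3.02). Tph1 cells exceeded the next class 4.30 times. Part of the lower levels lay in cells that met the Tph1 rule too: 13 of 129 goblet cells and 29 of 497 Lgr5 cells did. In cells that met exactly 1 rule, Gstk1 had 252 CPM (236 to 269) in Tph1 cells, 44.5 (37.9 to 52.0) in enterocytes, 9.26 (7.66 to 11.1) in cycling cells, 5.22 (2.25 to 10.3) in goblet cells and 5.21 (3.57 to 7.36) in Lgr5 cells.

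Shares of cells with a UMI were read beside these levels. After each cell was thinned to 2000 UMIs, Gsta1 was found in 48.9% of 133 enterocytes (40.1 to 57.7%, exact Clopper-Pearson 95% interval; 1 shallower cell left out) and in 0.202% of 495 Lgr5 cells (0.00511 to 1.12%; 2 left out). Without thinning the shares were 86.6% and 4.23%. B cells, which are not an epithelial type, were set beside the 6 classes (at least 3 UMIs of Cd79a, Cd79b and Ms4a1, 88 cells, median 2674 UMIs). Of these 88 cells, 2 also met the enterocyte rule, 1 the Lgr5 rule and 3 the cycling rule, and the deepest held 46306 UMIs. Gsta1 was found in 1.35% of 74 thinned B cells (0.0342 to 7.30%, 14 left out). The Lgr5 share did not exceed that of the B cells, which rests on 1 thinned cell, so it may be background. Gstk1 was found in 26.5% of 344 thinned Tph1 cells (21.9 to 31.5%; 3 left out), in 1.82% of Lgr5 cells (0.835 to 3.42%) and in 0 of 74 B cells, whose exact upper bound is 4.86%. Mgst1 was found in 73.7% of enterocytes (65.3 to 80.9%), 49.1% of Lgr5 cells (44.6 to 53.6%), 11.9% of Tph1 cells (8.69 to 15.8%) and 13.5% of B cells (6.68 to 23.5%). The Mgst1 share of Tph1 cells did not exceed that of the B cells, and neither did those of goblet cells (11.3%, 6.31 to 18.2%) and Paneth cells (9.52%, 2.66 to 22.6%). In Paneth cells the shares of Gsto1 (11.9%) and Gstp1 (4.76%) were also no higher than in B cells (12.2% and 5.41%). These shares were thus not above those of the B cells. However, 5 B cells held 89.7% of the Mgst1 UMIs of their group, and some B cells met an epithelial rule. The B cells are therefore not a clean measure of background, and whether these shares are background was not tested.

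Each class was next set against Lgr5 cells, the stem cells from which the other epithelial classes descend. Cells that met both rules were left out of both sides, and the 5 comparisons share the Lgr5 cells. Ratios are log2 differences with 10 CPM added to both sides, and a gene with at least 50 UMIs over both classes was called when it differed at least 2-fold.

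In enterocytes, 7 of 8 members were called higher (132 cells against 495), where 6.59% of 10591 genes were called higher and 6.01% lower. The median ratio was 1.59 for the members and -0.13 for all genes tested. Gsta1 had the largest ratio, 5.69 (581 against 1.47 CPM), and ranked 5 from the top of all genes tested. Gstm3 followed with 4.26 (553 against 19.4 CPM, rank 16) and Gsta4 with 3.32 (149 against 5.88 CPM, rank 44). Gstm1 had 1.82, Gstk1 1.35, Gstp1 1.31 and Mgst1 1.20. Gsto1, with 0.81 (453 against 254 CPM), was higher with intervals apart but under 2-fold. In cells of tags 3 and 4 Gstm1 stood at 0.97, and in cells of tags 1 and 2 Gstk1 stood at 0.80 and Mgst1 at 0.97.

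In Tph1 cells (318 against 468 cells), 1 of 7 measured members was called higher and 1 lower, beside 11.1% of 11016 genes called higher and 2.40% lower. Gstk1 had a ratio of 3.94 (217 CPM, 204 to 229, against 4.78, 3.68 to 6.10) and ranked 61 from the top. Mgst1 had -1.34 (116 CPM, 107 to 125, against 308, 298 to 317) and ranked 91 from the bottom. Gstm1 lay just short of the threshold at -0.95, and reached 2-fold lower in 8 of 13 alternatives. Gsto1 (0.11), Gsta4 (0.04) and Gstm3 (-0.21) had overlapping intervals, and Gsta1 had too few UMIs to be measured.

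In goblet cells (128 against 496 cells) 3 of 8 members were called higher, beside 4.55% of 10542 genes, and 1 lower, beside 1.75%. Gsta4 had a ratio of 1.64 (40.4 against 6.17 CPM), Gstk1 1.31, Gsta1 1.16 and Mgst1 -1.24 (122 against 301 CPM). The Gstk1 and Gsta1 calls were lost without a few cells, and the Gsta4 call was not. The 5 goblet cells with most UMIs of a gene held 78.0% of the Gstk1 UMIs, 42.9% of the Gsta4 UMIs and 42% of the Gsta1 UMIs. Gstk1 was at 0.001 in cells that met exactly 1 rule. Without the 5 cells of each class with most UMIs of the gene, Gstk1 was at 0.40, Gsta1 at 0.83 and Gsta4 at 1.16. In goblet cells of tags 1 and 2, Gsta1 was at 0.32 and Gsta4 at 0.79.

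In Paneth cells (28 against 483 cells) 6 of 7 measured members were called lower and 0 higher, but 54.1% of 10180 genes were called lower and 1.19% higher there. The median was -1.65 for the members and -1.08 for all genes. When mitochondrial, rule and defensin genes were taken out of the total, the shares of all genes were 31.2% lower and 2.87% higher, and the medians -1.14 and -0.68. Mgst1 had -4.11 (9 UMIs, 8.81 CPM, 4.03 to 16.7, against 315, 306 to 324) and ranked 12 from the bottom. Gsta4, Gstm3 and Gstk1 had 1 UMI each in these Paneth cells, so their ratios depend on the 10 CPM added.

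In cycling cells (457 against 317 cells) 0 of 8 members were called in either direction, beside 2.76% of 10810 genes called higher and 0.962% lower. Of the 8 ratios, 7 were above 0 and 1 below. Gstp1 had the largest ratio, 0.75 (118 CPM, 112 to 123, against 65.9, 60.2 to 72.1), and Gstm1 had -0.13 with overlapping intervals. The Gstp1 ratio was 0.04 when cells were thinned to 2000 UMIs (85 and 57 UMIs left). It was 0.66 in cells of tags 1 and 2 and 0.62 in cells of tags 3 and 4, where Gsta1 was higher at 0.95 on 33 and 2 UMIs. Cells that met both the Lgr5 and the cycling rule lay between for Gstp1, with 77.8 CPM.

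**Figure D2:**
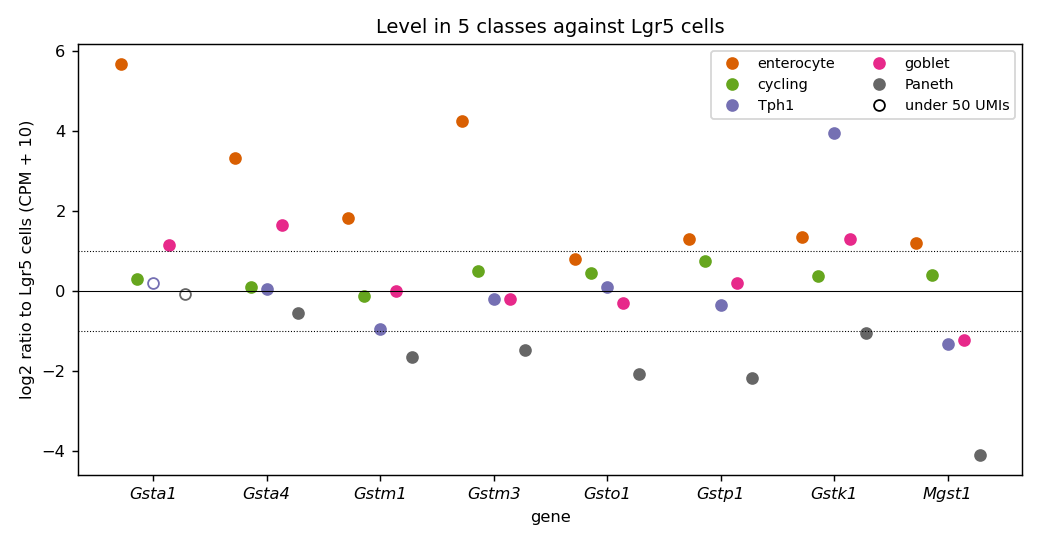
Log2 ratio of each gene in 5 classes to Lgr5 cells, with 10 CPM added to both sides; dotted lines mark 2-fold and open points genes under 50 UMIs. Enterocyte points lie above 0 for all 8 genes, up to 5.69 for Gsta1, and Gstk1 in Tph1 cells is at 3.94.

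Inside the enterocyte class, Gsta1, Gsta4, Gstm1 and Gstm3 rose more steeply than the other members along Alpi, the intestinal alkaline phosphatase gene of the rule. Gsta1 went from 147 CPM (129 to 166) in 50 cells with 2 to 4 Alpi UMIs to 512 (478 to 547) in 53 cells with 5 to 9 and 1247 (1183 to 1313) in 31 cells with at least 10. Gstm3 took the same course, with 164 (145 to 185), 492 (459 to 526) and 1154 (1093 to 1218) CPM. From the first to the last of these groups, Gsta4 went from 38.9 (30.0 to 49.6) to 287 CPM (257 to 320). Gstm1 went from 128 (111 to 146) to 520.0 CPM (479 to 564). Gsto1 moved from 405 (375 to 437) to 520.0 CPM (479 to 564) and Mgst1 from 601 (564 to 639) to 794 (743 to 847), both with intervals apart. Gstp1 moved from 174 (154 to 195) to 209 CPM (183 to 237) and Gstk1 from 44.9 (35.3 to 56.3) to 58.9 (45.7 to 74.9), both with overlapping intervals. The median UMIs of the 3 groups were 28073, 27095 and 33543. Cells just inside the rule (24 cells with 2 Alpi UMIs) had 57.8 CPM of Gsta1, and those just outside it (105 cells with 1) had 44.2 CPM (36.9 to 52.5).

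**Figure D3:**
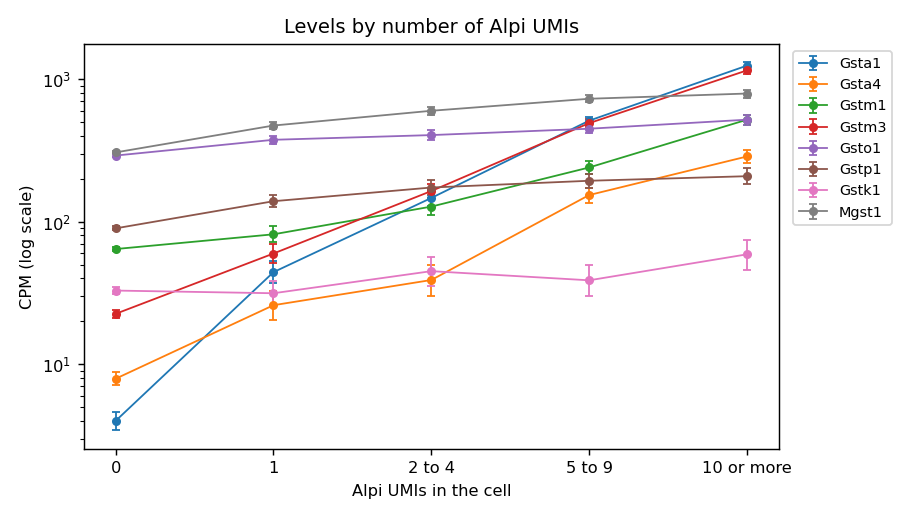
Summed level of the 8 genes in cells grouped by their number of Alpi UMIs, in CPM on a log axis; bars are exact 95% Poisson intervals. Gsta1 and Gstm3 reach 1247 and 1154 CPM in cells with at least 10 Alpi UMIs, whereas Gsto1 stays between 291 and 520.0 CPM.

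The more steeply rising members also went together from cell to cell. Over 132 enterocytes thinned to 5000 UMIs, Spearman's rho was 0.74 between Gsta1 and Gstm3, 0.54 between Gstm1 and Gstm3 and 0.46 between Gsta1 and Gsta4. With Fabp1, a fatty acid binding protein of enterocytes, rho was 0.66 for Gsta1 and 0.67 for Gstm3, and with the proliferation marker Mki67 it was -0.36 and -0.41. For the same 2 genes it was 0.49 and 0.54 with Apoa1 and 0.45 and 0.40 with Apoa4. It was weaker with Alpi itself, at 0.39 and 0.31, and for Gsta4 and Gstm1 it was 0.22 and 0.14 there. With the stem cell marker Olfm4, rho was -0.10 for Gsta1 and -0.12 for Gstm3. These are descriptions over cells that share 1 library. At this depth enterocytes held a median of 5 of the 8 members and 75% of them held at least 4, against a median of 2 and 10.2% in 491 Lgr5 cells.

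Inside the Tph1 class, Gstk1 went with Afp, the alpha-fetoprotein gene. Gstk1 had 17.2 CPM (11.9 to 24.2) in 115 Tph1 cells with no Afp UMI, 61.7 (44.5 to 83.4) in 40 cells with 1 to 2 and 314 (296 to 332) in 192 cells with at least 3. Thinned to 5000 UMIs, it was found in 9.09% of 99 (4.24 to 16.6%), 22.2% of 36 (10.1 to 39.2%) and 60.1% of 183 cells (52.6 to 67.3%). In cells with at least 3 Afp UMIs it had 281 CPM (256 to 307) among those with Xist and no Y-linked UMI and 390 CPM (343 to 441) among those with Y-linked UMIs. Gsto1 had 259 CPM (237 to 283) without Afp and 280 (263 to 297) with at least 3 Afp UMIs. The split by Afp was made after the values were seen. In 43 cells with at least 10 Chga UMIs and under 5 of Tph1, a group also added later, Gstk1 had 4 UMIs, with an interval of 2.99 to 28.1 CPM; their median depth was 4821 UMIs.

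**Figure D4:**
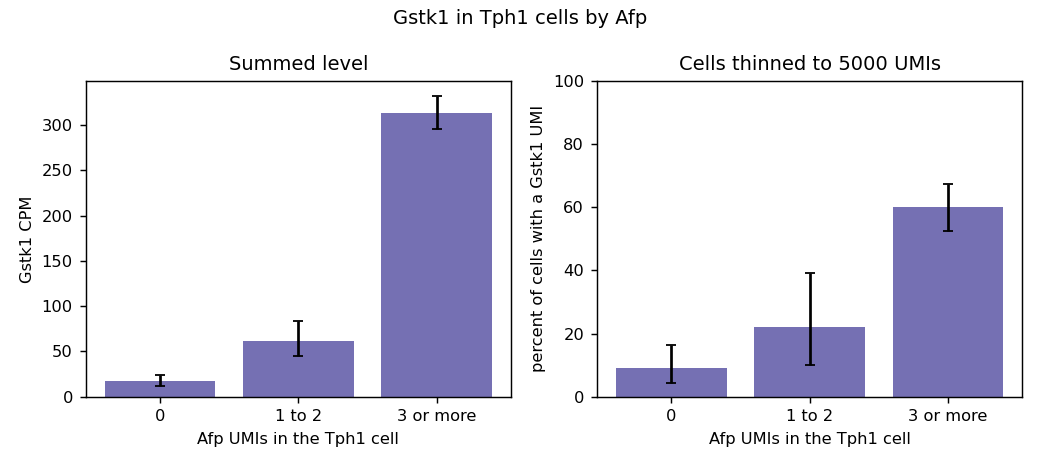
Gstk1 in Tph1 cells grouped by Afp UMIs, as summed CPM (left, bars with exact 95% Poisson intervals) and as the percent of cells with a UMI after thinning to 5000 UMIs (right, exact Clopper-Pearson intervals). The level goes from 17.2 to 314 CPM and the share from 9.09% to 60.1%.

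Cells carried 4 hashtags, and the labels used here do not state which sort each one marks. Tags 1 and 2 held 563 cells with Xist and 248 with Y-linked UMIs, so that pair mixes both. A cell went to tags 1 and 2 or to tags 3 and 4 when that pair led the other 3-fold or more in counts; this placed 987 and 411 cells and left 937 out. In Lgr5 cells (157 against 120) the 8 members together had 745 against 724 CPM with overlapping intervals, and Gstk1 alone differed with intervals apart, at 21.8 (17.8 to 26.3) against 7.80 CPM (5.40 to 10.9). Over all Lgr5 cells, 5 cells held 55.7% of the Gstk1 UMIs. In cycling cells (237 against 122) the sum was 880.0 against 879.8 CPM. There Gsta1 (2.16 against 7.59 CPM) and Mgst1 (337 against 366) were lower in tags 1 and 2 with intervals apart. Gstk1 (20.7 against 9.87 CPM) and Gstp1 (110 against 89.8) were higher with intervals apart. In enterocytes (29 against 28 cells) Gstm3 had 477 (436 to 522) against 268 CPM (240 to 299) and Gstm1 252 (222 to 285) against 139 (119 to 161), whereas Gsta1 had 421 against 380 CPM with overlapping intervals. The Gstk1 levels of Lgr5 cells differed more than 2-fold as such, but their log2 ratio was 0.83 with 10 CPM added to both sides. On that scale 0 of the 8 members differed 2-fold in Lgr5 cells or enterocytes. Beside that, 0.782% of 5242 genes were called higher and 0.687% lower in enterocytes of tags 1 and 2, and 0.457% of 9399 genes higher and 0.149% lower in Lgr5 cells. These values depended on the tag rule. A second rule placed all cells at the valley of the tag ratio, at a log2 ratio of 2.35 of tags 1 and 2 to tags 3 and 4. Its tags 3 and 4 side held 1384 cells, including cells in which tags 1 and 2 led by less than that. It also held the 77 enterocytes that the 3-fold rule left out. With all cells placed at the valley of the tag ratio (29 against 105 enterocytes), Gsta1 had 421 (382 to 463) against 603 CPM (578 to 630), and Gsta4 (103 against 157 CPM), Gstm3 (477 against 555) and Mgst1 (611 against 723) were also lower in tags 1 and 2 with intervals apart. Gstm1 had 252 against 274 CPM with overlapping intervals, and in Lgr5 cells (148 against 349) Gstk1 had 12.1 against 12.2.

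Other genes of the pathway were counted from lists. Of 15 measured further glutathione transferase genes, 5 were called higher in enterocytes than in Lgr5 cells and 0 lower. Mgst3 (1387 against 208 CPM, ratio 2.68) and Mgst2 (2.33) were the highest, and Gstm5 (-0.60) and Gstcd (-0.74) the lowest. Gstt1, a theta class enzyme chosen after its values were seen, had 1738 CPM (1703 to 1774) in Tph1 cells against 33.1 (30.1 to 36.3) in Lgr5 cells, a ratio of 5.34. Unlike Gstk1, it was already at 1179 CPM (1131 to 1229) in Tph1 cells without an Afp UMI, and at 1786 (1744 to 1829) with at least 3.

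Further lists covered the steps before and after conjugation and the supply of glutathione. Phase I oxidation enzymes were higher in 18 of 20 measured genes (median 2.50), led by Adh6a (643 against 16.9 CPM, ratio 4.60) and the carboxylesterase Ces1f (4.10); Aldh1b1 was at -0.64 and Cyp4b1 at 0.24. Genes of conjugate export and mercapturate breakdown were higher in 9 of 13 (median 1.80), with the aminopeptidase Anpep at 2.88 and the gamma-glutamyltransferase Ggt1 at 2.59, and the exporter Abcc1 at -0.71. Other conjugating enzymes were higher in 6 of 14 (median 0.79; the sulfotransferase Sult1b1 2.81, the glucuronosyltransferase Ugt2a3 2.40, Tpmt 0.04). Genes of glutathione synthesis and recycling were higher in 3 of 10 and lower in 1 (median 0.59). Among them Slc3a2, an amino acid transporter subunit, had 1.28, Gclc, the catalytic subunit of the rate-limiting step, -0.16, and the glutamine transporter Slc1a5 -1.48.

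Glutathione peroxidases and redoxins were higher in 6 of 18 measured genes and lower in 0 (median 0.37), with Gpx1, which reduces hydrogen peroxide, at 2.02 (1878 against 455 CPM), Srxn1 at 1.94 and Prdx4 at -0.35. Nrf2 and its reported targets were higher in 8 of 17 and lower in 0 (median 0.81). The quinone reductase Nqo1 had 2.30 (64.6 against 5.18 CPM) and Akr1b8 2.28, while Ephx1 had -0.60 and the repressor Bach1 -0.50. All these shares stand beside 6.59% of all genes called higher.

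The genes whose level went most closely with the sum of the 8 members were ranked by Pearson's r of log2 levels over 9 groups of cells, the classes split by tag pair. Acadvl (r = 0.997), an enzyme of mitochondrial fatty acid oxidation, Esrra (0.996), a nuclear receptor, Cyb5a (0.996), an electron carrier of the endoplasmic reticulum, and Hbegf (0.995), a growth factor, were among the first 5 of 8251 genes. The 9 groups come from 1 library, and r is a description with no test.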

How the data were processed

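The authors deposited raw counts of UMIs per gene and cell and raw hashtag counts per cell; per the file headers the matrix came from software version 3.1.0, and per the submitters' processing notes Cell Ranger and Seurat were used. The notes name a human genome build although the identifiers are mouse, so no coordinates were taken from the files; those of the printed promoters are from RefSeq (GRCm38.p6). The count table held 2335 of 11248 barcodes, the same barcodes as the hashtag table, and 0 of its entries differed from the deposited matrix. The filter that kept them was not given in the sources used here. The deposited natural log table was not used.

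UMIs were summed per class and scaled to 1000000 (Python 3.11.15, numpy 2.4.6, scipy 1.17.1, pandas 2.3.3, matplotlib 3.10.9). Settings were a pseudocount of 10 CPM, a minimum of 50 UMIs over both classes and a 2-fold call. The ratio step was tested on simulated data, and the thinning step was checked on cells of this library. With 1 library there is no replicate and no test. Members and lists were chosen with earlier results of these data known. All 8 members are named; of each list, the 2 genes with the highest and the 2 with the lowest enterocyte ratio; for likeness, the first 5 genes with at least 500 UMIs, of which 1 is not reported here. Gsta5, of the further transferases, was not matched. No doublet caller was run; cells meeting several rules and the 6% deepest cells were left out in alternatives. Protein sequences were not used here.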

Additional observations from a re-analysis of the deposited data

Results flagged for a closer look

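Barcodes that the authors' count table leaves out entered no comparison, and many carry the class markers. Those that met a class rule held the 8 members at levels far above the limit of 3 counts. In left-out barcodes the sum of the 8 members was 2918 CPM under the enterocyte rule (237 barcodes), against 2898 CPM in the kept enterocytes. It was 697 CPM under the Lgr5 rule, 710 CPM under the cycling rule, 691 CPM under the Tph1 rule, 473 CPM under the goblet rule and 431 CPM under the Paneth rule (105 barcodes), where kept Paneth cells had 175 CPM. The left-out enterocyte barcodes had a median of 7620 UMIs and 30.0% mitochondrial UMIs, and the left-out Paneth barcodes 3165 UMIs and 13.7%. The highest mitochondrial share of a kept cell was 12.5%. Above it lay 204 of 237 left-out barcodes under the enterocyte rule, 360 of 408 under the cycling rule and 117 of 145 under the Lgr5 rule. Under the goblet, Tph1 and Paneth rules it was 131 of 250, 90 of 175 and 64 of 105. Of all UMIs of the kept cells, 8.45% were mitochondrial in enterocytes and 2.12% in Paneth cells. Mitochondrial UMIs are part of the CPM total, so the sums are not on a like basis. Single members differed too: Gstm1 had 455 CPM in left-out and 269 in kept enterocytes, and Mgst1 456 and 698. Gstk1 was again highest under the Tph1 rule, with 146 CPM, and Gsta1 under the enterocyte rule, with 683 CPM. Whether the mitochondrial share or depth moves these levels was not tested.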

How the results depend on the processing

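Each member ratio to Lgr5 cells was recomputed under up to 14 alternatives, each only where both sides kept at least 20 cells; 0 of the called ratios changed sign. Of 488 recomputed ratios, 376 moved by less than their counting interval and 112 by more. The number of members called higher in enterocytes was 5 with thinning, which left 6 members measured, 5 with a pseudocount of 50 CPM and in cells of tags 1 and 2, 6 in cells of tags 3 and 4, and 7 in the other 9 alternatives run. In cycling cells 1 member was called higher with a pseudocount of 1 CPM. In Tph1 cells 2 members were called lower in place of 1 in cells that meet exactly 1 rule, with thinning to 2000 UMIs, with the mean of per-cell CPM, with the total without mitochondrial, rule and defensin genes, with a pseudocount of 1 CPM, without the 5 cells with most UMIs, without the 6% deepest cells and in Y-linked cells. In goblet cells the 3 members called higher became 1 in cells that meet exactly 1 rule, 1 without the 5 cells with most UMIs, 1 in cells of tags 1 and 2, 0 with thinning to 2000 UMIs and 0 with a pseudocount of 50 CPM. In Paneth cells the 6 members called lower became 3 with thinning, which left 4 measured, and 3 with a pseudocount of 50 CPM. Counts of all genes called stayed within 1.5 times under other minimums of UMIs. The cause of the changes was not tested, except that thinning left 4 members measured in goblet and in Paneth cells and 5 in Tph1 cells. No paired analysis was possible because the series has 1 gene expression library and no replicates. Precision is limited by the number of cells in the Paneth class, of which 28 were compared.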
